A study of Homo sapiens with 7 samples.

Results

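The 39 genes described here encode the machinery that copies DNA in S phase and the regulators that open that phase. They were taken by gene symbol, as a list that names the origin licensing factors, the helicase activators, the replicative polymerases, the sliding clamp and its loader, the proteins that finish new strands, the enzymes of nucleotide supply and 3 regulators of the step into S phase. Each symbol matched 1 gene row among the 18817 gene rows of the series. All 39 were among the 13566 genes with enough counts to be tested. RNA came from H4, an established line of human neuroglioma cells, which here carried Cry2Olig-PKR (opto-PKR), a fusion of a protein that clusters under blue light with PKR, the eIF2 kinase that starts the integrated stress response. The cells grew in a glass-bottom plate under unbroken blue light for 0, 60, 120, 240, 480, 600 or 720 min before they were lysed, and 1 library was made per time. The cells of the 0 min library carried the same construct and had no light. The sources used here do not give the promoter that drives the construct, or say whether the line is 1 clone. Cells without opto-PKR, and unlit cells kept as long as the lit ones, were not analysed here, so light and time in the plate cannot be told apart.

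DNA replication starts when the origin recognition complex, CDC6 and CDT1 load the MCM helicase onto DNA in G1. In S phase, MCM10, CDC45 and the GINS complex turn that helicase on, DNA polymerases alpha, delta and epsilon copy the strands, and the PCNA clamp holds the polymerases on DNA while RPA coats the single strands. The transcription factor E2F1 and its relatives switch on many of these genes when cyclin E and its kinase partner act late in G1, so their mRNAs mark cells that are entering or passing through S phase.

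The libraries were made with an adaptation of CEL-Seq2, which reads transcript ends and counts molecules by short random tags (unique molecular identifiers, UMIs). The 6 complete tables held 7048253 to 8911818 transcripts. The table at 480 min stopped at NME1-NME2 in alphabetical order and held 5266123, so 19 of the 39 genes have a value at 480 min and 20 have none. Levels are transcript counts scaled by the effective library size (CPM). A trend is the fitted log2 change across the whole 720 min. A bend is how far the fitted log2 level at 360 min lies from the mean of both fitted ends, so a downward (negative) bend is a dip in the middle. Both were tested in edgeR by its quasi-likelihood F test, with Benjamini-Hochberg adjustment over all 13566 genes and a threshold of 0.05. No time was repeated, so the p-values rest on the spread of single libraries around a smooth course, which may be technical. Ratios of one time to 0 min have 95% intervals that cover counting error only and are no test. With bulk RNA, fewer cells in S phase and less RNA per cell cannot be told apart. Of 7 markers looked at for the H4 line, 5 had a row: VIM at 682 to 886 CPM, CD44 at 495 to 703 CPM, FN1 at 231 to 411 CPM, SOX2 at 15.9 to 54.5 CPM and NES at 0.202 to 1.65 CPM, under the count filter. GFAP and S100B, markers of mature glia, had no row in the files used here. The 5 summed to 1435 CPM at 720 min, against 1921 CPM at 0 min, and 0 of the 4 tested passed the edgeR trend test (2 at an unadjusted p under 0.05, and 0 by DESeq2). Their part in the results was not tested. Summed markers of other cell types (8 of 10 listed) lay between 0.978 and 2.77 CPM, and none reached the count filter.

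Because binding of E2F factors to promoters is the textbook route by which these genes are switched on, their promoters were searched for the E2F octamers TTTCCCGC, TTTCGCGC, TTTGCCGC and TTTGGCGC on both strands. RefSeq windows of 250 bases before to 50 bases after an annotated start (GRCh38.p14) were at hand for 33 of the 39 genes, and 17 of them (51.5%) held at least 1 octamer. A gene with several windows counted if any of them held an octamer. The share was 6.69% of the 9732 tested genes with a window and 3.31% of all 35116 windows. Among genes with a falling trend 5 of 7 held one, and among the rest 12 of 26. Such a match is a description of letters and not of a bound site. The counts were mapped to another build, hg19, per the submitters' processing notes, so the coordinates locate the promoters alone. The 5 stretches shown belong to GINS2 and LIG1, which were lower from 120 min on, MCM3, whose fall was the steadiest under other settings, PCNA, which dipped at 240 min, and CDC6, which passed neither test. Each runs from 250 bases before the start to 15 bases from it on, 5' to 3' on the gene's strand, with octamers in capitals. The GINS2 stretch lies at chr16:85688940-85689204 on the minus strand, with its octamer at -31 from the start, and LIG1 at chr19:48170330-48170594, minus strand, with its octamer at -114. MCM3 lies at chr6:52284728-52284992, minus strand, with octamers at -174 and -4. PCNA lies at chr20:5126608-5126872, minus strand, with an octamer at -59, and CDC6 at chr17:40287629-40287893, plus strand, with an octamer at 7. Another PCNA window, at chr20:5119909-5120208, held no octamer, and only windows that held one are shown.
GINS2: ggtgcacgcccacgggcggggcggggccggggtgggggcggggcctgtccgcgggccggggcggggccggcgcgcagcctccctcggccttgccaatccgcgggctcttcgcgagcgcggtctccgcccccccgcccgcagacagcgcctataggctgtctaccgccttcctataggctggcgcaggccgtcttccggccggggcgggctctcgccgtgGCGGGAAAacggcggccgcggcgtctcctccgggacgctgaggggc
LIG1: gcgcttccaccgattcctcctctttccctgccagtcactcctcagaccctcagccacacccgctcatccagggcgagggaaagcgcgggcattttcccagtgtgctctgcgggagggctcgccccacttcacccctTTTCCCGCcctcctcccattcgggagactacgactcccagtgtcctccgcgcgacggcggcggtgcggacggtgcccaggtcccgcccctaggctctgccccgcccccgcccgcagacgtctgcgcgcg
MCM3: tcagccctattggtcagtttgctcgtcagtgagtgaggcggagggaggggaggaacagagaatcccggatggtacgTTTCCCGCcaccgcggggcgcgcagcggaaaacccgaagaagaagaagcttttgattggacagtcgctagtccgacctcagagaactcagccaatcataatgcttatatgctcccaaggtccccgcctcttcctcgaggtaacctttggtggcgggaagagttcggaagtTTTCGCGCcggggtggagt
PCNA: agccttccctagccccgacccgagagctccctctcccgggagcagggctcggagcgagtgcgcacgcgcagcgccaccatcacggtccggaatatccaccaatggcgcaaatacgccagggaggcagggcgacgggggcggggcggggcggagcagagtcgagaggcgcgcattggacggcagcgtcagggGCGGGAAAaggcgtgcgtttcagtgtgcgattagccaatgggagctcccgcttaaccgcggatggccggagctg
CDC6: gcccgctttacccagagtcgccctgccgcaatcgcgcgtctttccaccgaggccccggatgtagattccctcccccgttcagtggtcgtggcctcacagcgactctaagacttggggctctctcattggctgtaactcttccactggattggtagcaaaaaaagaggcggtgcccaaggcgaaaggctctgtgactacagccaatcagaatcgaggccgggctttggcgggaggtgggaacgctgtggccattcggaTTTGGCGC

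In sum these mRNAs were lower the longer the cells were under light, and most of the difference lay after 120 min. Summed over the 39 genes, the level was 4249, 4088, 3995, 3469, 3008 and 2834 CPM at 0, 60, 120, 240, 600 and 720 min. The median ratio to 0 min was -0.13, -0.04, -0.27, -0.56 and -0.57 at 60, 120, 240, 600 and 720 min. It was thus not lower at each time than at the one before, and abundant genes weigh most in the sum. The trend fell for 9 of the 39 genes, against 2.96% of all genes tested, and the 9 were MCM2, MCM3, MCM4, MCM7, MCM10, GINS2, POLD1, LIG1 and CCNE2. The trend rose for 0 of the 39 in edgeR, where 3.9% of all genes rose (0 of the 39 at an unadjusted p under 0.05, and 0 by DESeq2). At an unadjusted p under 0.05 the trend was negative for 23 of the 39 genes (11.2% of all genes). The median trend over the 39 was -0.62, against -0.02 over all genes, and 37 of the 39 trends had a negative sign (51.4% of all genes). Of the 19 genes fitted on 7 libraries 8 fell (3.49% of such genes in all), and of the 20 fitted on 6 libraries 1 fell (2.25% in all). The course bent downward for 8 genes (13.7% of all genes) and upward for 2 (17.5% of all genes).

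Set against 0 min, the number of the 39 genes lower by at least 0.5 on the log2 scale, with an interval below 0, was 2, 4, 13, 22 and 23 after 60, 120, 240, 600 and 720 min of light. Of the 19 genes listed at 480 min it was 13. Over all genes the same share was 6.35%, 15.2%, 21.2%, 15.7% and 14.7% at 60, 120, 240, 600 and 720 min, and 19.7% at 480 min. The share among all genes was therefore highest at 240 min, while among the replication genes it was highest late. Genes higher by the same rule numbered 0 at 60 min (9.5% of all genes), 2 at 120 min (16.9% of all genes), MCM10 and RFC3, and 1 at 240 min (23.5%), RFC3. At 480 min 0 of the 19 listed were higher (21.4%), and 0 of the 39 were at 600 min (17.0%) or 720 min (14.5%).

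**Figure D1:**
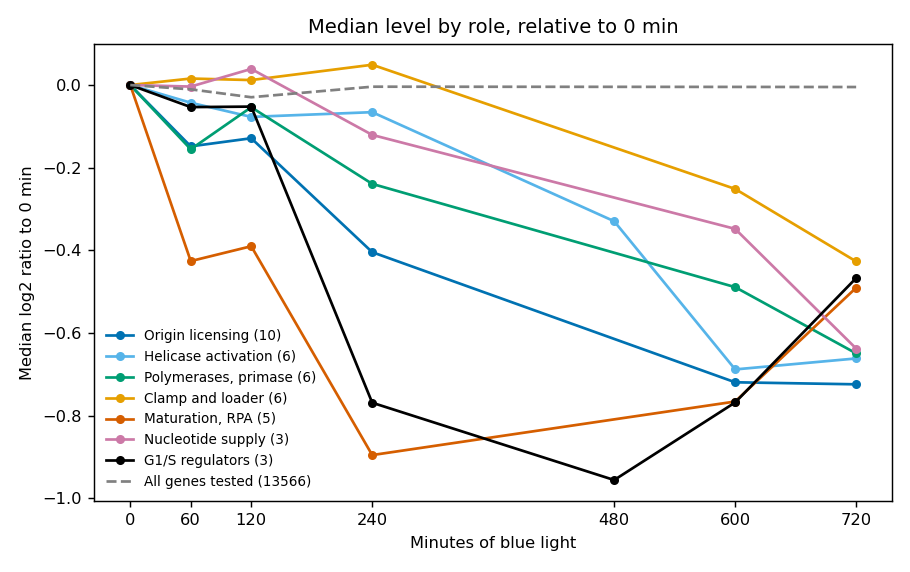
Median log2 ratio to 0 min (vertical axis) of the genes of each role against minutes of blue light (horizontal axis). Licensing factors lay at -0.72 at 720 min, the clamp and its loader at -0.43, and the strand-finishing and RPA genes at -0.90 at 240 min and -0.49 at 720 min. A role has a point at 480 min only where all its genes are listed there.

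The medians of the roles differed in course, and each hides members that went other ways. The median ratio of the licensing factors was -0.15, -0.13, -0.40, -0.72 and -0.72 at 60, 120, 240, 600 and 720 min. For helicase activation the median at 240 min was -0.07, but the 6 genes then ranged from -1.14 for GINS2 to 0.38 for GINS3. Their summed level was 210 CPM at 240 min, against 277 CPM at 0 min, and their median lay at -0.33, -0.69 and -0.66 in the last 3 libraries. Medians at 240, 600 and 720 min were 0.05, -0.25 and -0.43 for the clamp and its loader, -0.12, -0.35 and -0.64 for nucleotide supply and -0.24, -0.49 and -0.65 for the polymerases. These 3 roles were thus less far below the 0 min level at 240 min than at 720 min. The strand-finishing and RPA genes had medians of -0.90 at 240 min and -0.49 at 720 min, though only 2 of the 5, FEN1 and LIG1, were listed between at 480 min. For the 3 regulators of S-phase entry the median was -0.77, -0.96 and -0.47 at 240, 480 and 720 min, while one of them, CCNE2, was lowest at 720 min. The difference between roles was not tested. No polymerase, clamp, loader or nucleotide supply gene had a value at 480 min, while 8 of 10 licensing genes did. Role and the number of libraries fitted thus go together, and their parts in the calls cannot be told apart.

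**Figure D2:**
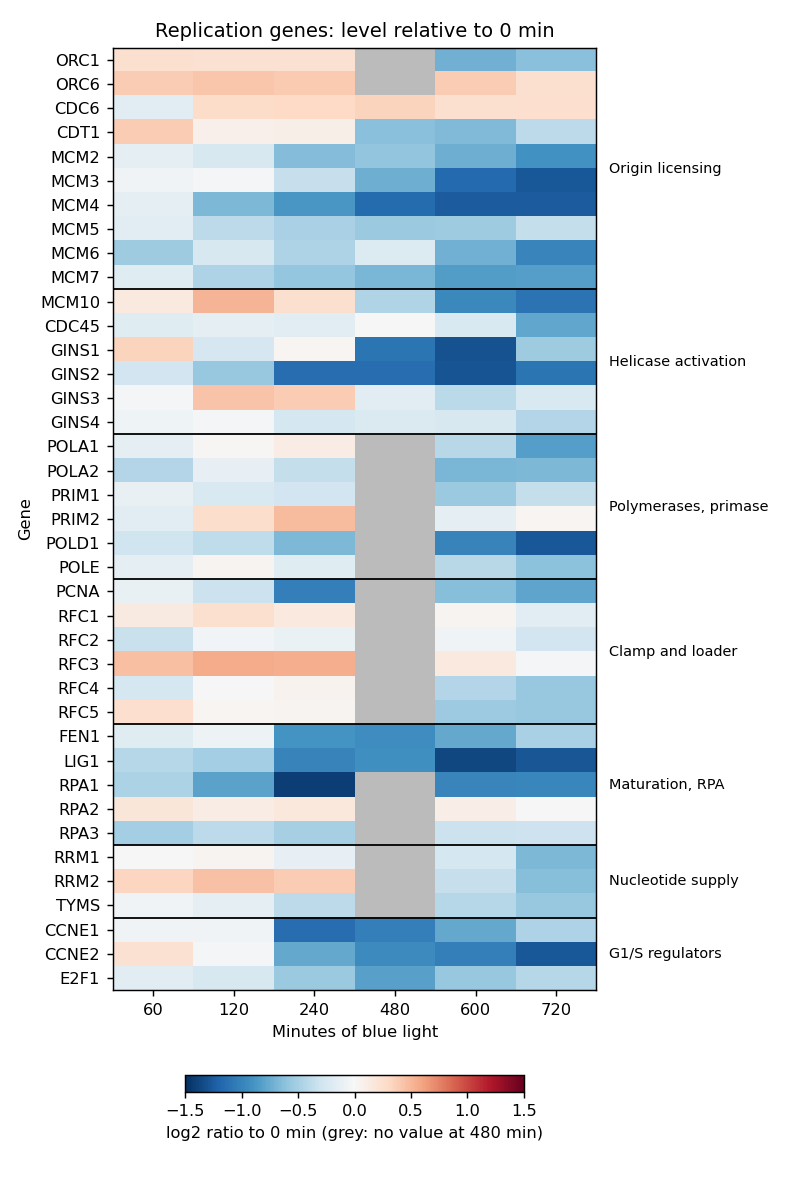
Log2 ratio to 0 min (colour) of each of the 39 genes (rows, grouped by role) at each time (columns). Grey cells are genes not listed at 480 min. The deepest values stand in the RPA1 row at 240 min, at -1.41, and in the LIG1 row at 600 min, at -1.37.

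Within origin licensing, the MCM helicase subunits were lower late while 2 of the loading factors were not. MCM2 to MCM7 form the ring-shaped core of the helicase. MCM3 stood at 152, 147, 150, 120, 91.3, 67.8 and 63.0 CPM across the 7 times. It kept its level for 120 min and was lower at each later time than at the one before, ending at 0.414 of the 0 min level. Its trend was -1.38 ± 0.17 (SE, adjusted p = 0.0035) and passed the threshold under each of the 14 other settings tried, 7 of which leave out a library. MCM4 stood at 128, 116, 80.2, 70.3, 57.4, 53.8 and 54.0 CPM, so it was low already at 120 min and level after 480 min. Its trend was -1.23 ± 0.23 (SE, adjusted p = 0.0156) with a downward bend of -0.49 ± 0.16 (SE, adjusted p = 0.0364). MCM2 stood at 135, 121, 114, 86.0, 89.7, 80.9 and 71.5 CPM and fell by 0.81 ± 0.18 (SE, adjusted p = 0.0313). The MCM7 level was 436, 386, 317, 291, 270, 243 and 246 CPM, a trend of -0.76 ± 0.16 (SE, adjusted p = 0.026). At 720 min the ratios to 0 min of these 4 subunits lay between -1.27 and -0.82.

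The other pair of subunits differed in course. MCM5 stood at 133, 119, 101, 94.7, 90.3, 92.1 and 104 CPM, a shallow dip with a bend of -0.40 ± 0.14 (SE, adjusted p = 0.0429). Its ratio at 720 min, -0.36 (interval -0.49 to -0.22), lay outside the interval of MCM3, -1.27 (-1.43 to -1.12). MCM6 went up and down between neighbouring times, at 88.3, 60.9, 74.9, 63.8, 76.8, 53.6 and 44.3 CPM, and its trend of -0.62 had an adjusted p of 0.192. Several of these calls were lost when a single library was left out. The MCM2 trend lost its call without the 60, 120, 480, 600 or 720 min library (-0.84 to -0.79, adjusted p 0.053 to 0.137), as did MCM7 without any of the same 5 (-0.89 to -0.73, adjusted p 0.0507 to 0.134). The MCM4 trend lost its call without the 60 or 600 min library (-1.22 to -1.14, adjusted p 0.0675 to 0.09). The MCM4 bend passed only with all libraries or without the 480 min one (-0.60 to -0.45, adjusted p 0.0538 to 0.144 without each of the others), and the MCM5 bend did not pass when any one library was left out (-0.44 to -0.36, adjusted p 0.0641 to 0.154).

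Of the factors that load the helicase, none passed the trend test. ORC1, the largest subunit of the origin recognition complex, stood at 21.3, 25.3, 25.0, 24.9, 12.8 and 13.7 CPM at 0, 60, 120, 240, 600 and 720 min, a level held for 240 min and low in both late libraries (trend -0.97 ± 0.29, SE, adjusted p = 0.0871). CDT1, the loader that is destroyed once S phase starts, stood at 46.5, 60.8, 49.1, 49.6, 30.0, 29.4 and 35.3 CPM, high at 60 min and low in the last 3 libraries (trend -0.86 ± 0.25, SE, adjusted p = 0.0763). Both trends passed without the 0 min library (ORC1 -1.17, adjusted p = 0.0316, and CDT1 -1.005, adjusted p = 0.041), and both were called by DESeq2. CDC6, the ATPase that joins the complex at origins, was above its 0 min level of 91.1 CPM at 5 later times, with 108 CPM at 720 min (ratio 0.25, interval 0.11 to 0.39). ORC6, a small subunit of the same complex, stood at 106, 138, 141, 139, 138 and 125 CPM at 0, 60, 120, 240, 600 and 720 min. All 5 ORC6 ratios were above 0, between 0.24 and 0.41, yet its trend was 0.06 (adjusted p = 0.907). CDT1, MCM4 and ORC6 counts were not whole numbers in any library that lists them, and the CDC6 count was not whole in 1 library. The sources used here do not say how a read with several matches was counted, so these levels are uncertain.

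**Figure D3:**
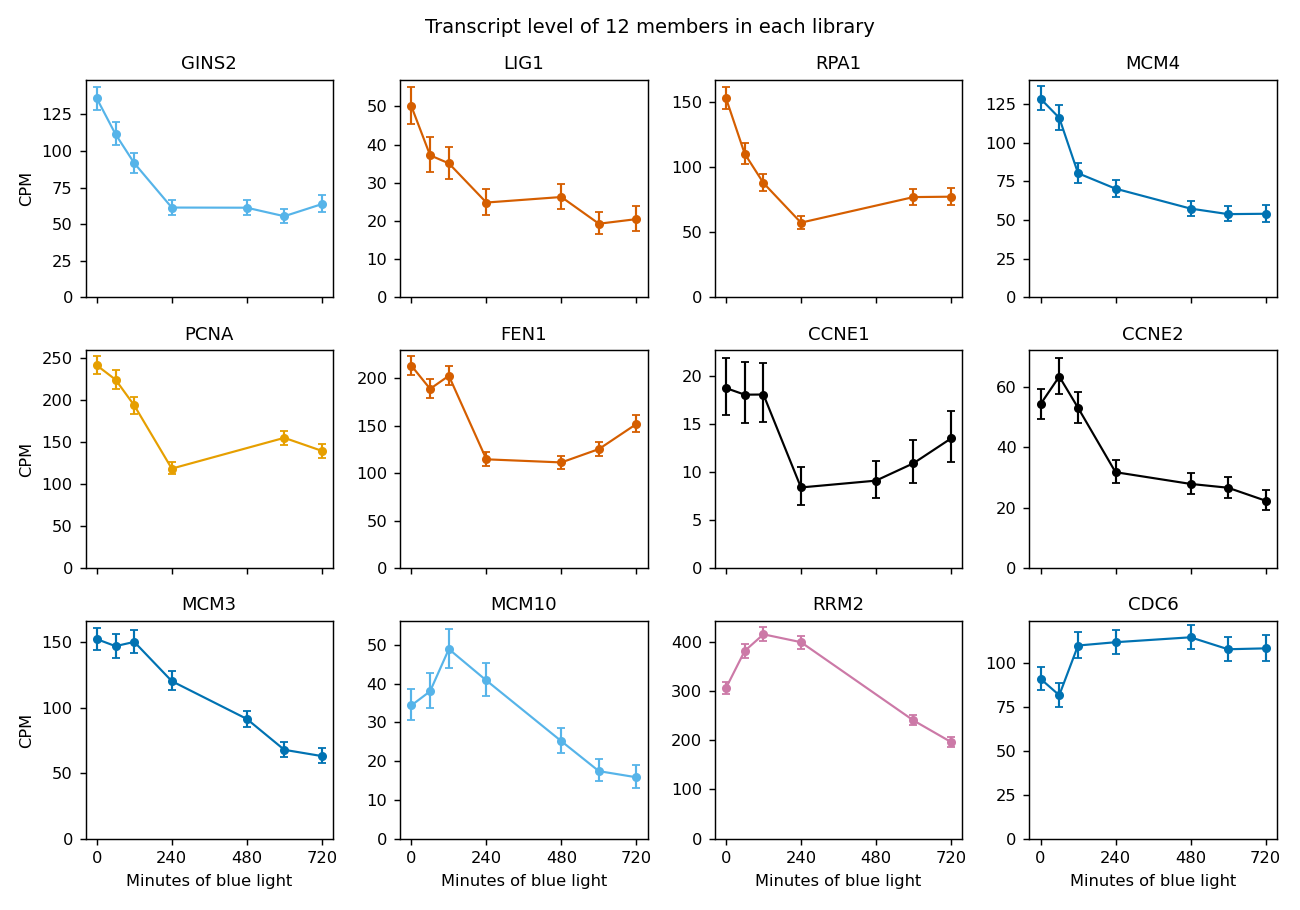
CPM (vertical axes, from 0) of selected genes against minutes of blue light (horizontal axes), 1 point per library with counting-error bars. Genes not listed at 480 min have no point there, and the line joins their neighbouring times. MCM3 ends at 63.0 CPM, against 152 CPM at 0 min, while RPA1 is lowest at 240 min, at 57.4 CPM.

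The genes that switch the helicase on were mixed. MCM10, which the helicase needs to start unwinding, stood at 34.4, 38.0, 48.9, 40.8, 25.2, 17.4 and 15.9 CPM. It was above the 0 min level at 120 min (ratio 0.51, interval 0.28 to 0.73) and at 0.461 of it at 720 min, with a trend of -1.46 ± 0.31 (SE, adjusted p = 0.0259). GINS2, a subunit of the GINS complex that bridges helicase and polymerase, took another course at 136, 111, 91.6, 61.3, 61.2, 55.4 and 63.7 CPM. Its level was down to 0.451 of that at 0 min by 240 min and lay between 55.4 and 63.7 CPM from there on. The trend was -1.09 ± 0.27 (SE, adjusted p = 0.042) and the bend -0.68 ± 0.16 (SE, adjusted p = 0.00855). GINS1, another subunit, stood at 38.5, 48.5, 32.3, 39.2, 17.9, 15.4 and 26.4 CPM, low at 480 and 600 min and higher again at 720 min (trend -1.15 ± 0.37, SE, adjusted p = 0.097).

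CDC45, the third part of the active helicase, lay between 18.7 and 22.0 CPM up to 600 min and at 12.7 CPM at 720 min. GINS3 ranged from 17.1 to 30.7 CPM and GINS4 from 17.4 to 23.7 CPM, and neither passed a test. GINS4 counts were not whole in 4 of the 7 libraries. The MCM10 call was lost without the 60, 120, 480, 600 or 720 min library (-1.56 to -1.31, adjusted p 0.0514 to 0.142), and without the 720 min library its course bent upward (1.04, adjusted p = 0.0141). The GINS2 trend was lost without the 0, 60, 120, 480 or 600 min library (-1.12 to -0.86, adjusted p 0.0686 to 0.179), and its bend without the 240 min library (-0.54, adjusted p = 0.0727). The GINS1 trend passed without the 720 min library (-1.87, adjusted p = 0.0365) and by DESeq2.

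Among the polymerases 1 of 6 fell. POLD1, the catalytic subunit of polymerase delta, which copies the lagging strand, stood at 32.3, 26.3, 24.7, 20.2, 15.9 and 13.2 CPM at 0, 60, 120, 240, 600 and 720 min, lower at each time than at the one before. Its trend was -1.13 ± 0.24 (SE, adjusted p = 0.0287). POLE, the catalytic subunit of polymerase epsilon on the leading strand, stayed between 28.1 and 33.0 CPM to 240 min and stood at 23.9 CPM at 600 and 20.7 CPM at 720 min (trend -0.59, adjusted p = 0.161). POLA1, the catalytic subunit of polymerase alpha, which starts each new strand, had 23.8, 21.4, 24.1, 25.8, 17.8 and 13.3 CPM, low in the last library. Its partner POLA2 had 43.7, 32.1, 40.1, 34.0, 27.1 and 27.2 CPM. At 720 min the primase subunits that lay the RNA primer stood closer to the 0 min level. This did not hold at 600 min. The PRIM1 ratio was then -0.56 (interval -0.77 to -0.35), against -0.42 for POLE and -0.41 for POLA1. PRIM1 was at 40.6 CPM at 720 min, against 51.9 CPM at 0 min, and PRIM2, with 4.61 to 7.28 CPM, was too scarce for a difference to be seen at 720 min (ratio 0.03, interval -0.63 to 0.68). The POLD1 call was lost without the 60, 120, 600 or 720 min library (-1.19 to -1.12, adjusted p 0.0814 to 0.14).

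For the clamp and its loader 0 of 6 trends passed in edgeR (3 were negative at an unadjusted p under 0.05, and DESeq2 called 1, RFC5). PCNA, the ring that keeps polymerases on DNA, stood at 241, 224, 194, 118, 155 and 140 CPM at 0, 60, 120, 240, 600 and 720 min. It was lowest at 240 min, at 0.491 of the 0 min level (ratio -1.03, interval -1.14 to -0.92), and its bend was -0.64 ± 0.23 (SE, adjusted p = 0.0474). The loader subunits did not share that dip. RFC1, the large subunit, lay between 132 and 174 CPM and RFC2 between 100 and 126 CPM. RFC3 was high in the first hours, at 58.2, 79.4, 86.0, 84.7, 64.4 and 57.2 CPM, an upward bend of 0.57 ± 0.20 (SE, adjusted p = 0.0451). RFC4 stood at 69.1, 57.7, 68.98, 71.9, 50.7 and 46.4 CPM and RFC5 at 43.1, 51.3, 43.9, 44.3, 29.4 and 28.9 CPM, both lowest in the 2 late libraries. The RFC5 trend was -0.78 (adjusted p = 0.08). It passed without the 0 min library (-0.90, adjusted p = 0.0395).

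The PCNA bend rested on few libraries: it was lost without the 0, 60, 120 or 240 min library (-0.73 to -0.15, adjusted p 0.0612 to 0.745), and without the 240 min library the PCNA trend passed instead (-0.71, adjusted p = 0.0368). It was lost too under RLE size factors, UMI counts, read counts and the rank of time (-0.66 to -0.35, adjusted p 0.0549 to 0.165). The RFC3 bend was lost without the 0, 60, 120 or 240 min library (0.28 to 0.67, adjusted p 0.0515 to 0.451) and by DESeq2 (adjusted p = 0.0531). PCNA has 3 annotated pseudogenes and RFC3 and RFC5 have 1 each, whose reads may have been shared. UMI counts of PCNA, RFC3 and RFC5 were whole in each library that lists them, and sharing was not tested. RFC2 counts were not whole in any library that lists the gene.

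Among the genes that finish lagging strands and coat single strands, RPA1 had the lowest ratio of all 39 genes at 240 min. RPA1, the largest subunit of the single-strand binding protein RPA, stood at 153, 110, 87.8, 57.4, 77.0 and 77.3 CPM at 0, 60, 120, 240, 600 and 720 min. Its ratio was -0.80 (interval -0.94 to -0.67) at 120 min and -1.41 (-1.57 to -1.27) at 240 min, and its level at 720 min was 0.505 of that at 0 min. The bend was -1.04 ± 0.22 (SE, adjusted p = 0.00427). The other subunits of the same trimer did not follow it. RPA2 stood at 146, 167, 158, 164, 157 and 146 CPM, never below the 0 min level by more than its counting error. RPA3 stood at 103, 72.1, 78.2, 72.4, 82.2 and 82.8 CPM, low from 60 min on with no later loss. At 240 min the ratios were 0.16 (interval 0.05 to 0.27) for RPA2 and -0.50 (-0.65 to -0.36) for RPA3, and neither interval overlaps that of RPA1.

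FEN1, the nuclease that trims the flaps of Okazaki fragments, had 213, 189, 203, 115, 111, 125 and 152 CPM. It was near its 0 min level at 120 min, low from 240 to 600 min, and partly back at 720 min, with a bend of -0.70 ± 0.18 (SE, adjusted p = 0.0125). LIG1, the ligase that joins those fragments, had 50.04, 37.2, 35.1, 24.8, 26.3, 19.3 and 20.5 CPM, low from 60 min and lowest in the last 2 libraries. LIG1 ended at 0.409 of its 0 min level, a trend of -1.17 ± 0.25 (SE, adjusted p = 0.0247). The RPA1 bend was lost without the 240 min library (-0.73, adjusted p = 0.129). The FEN1 bend was lost without the 240 or 720 min library (-0.67 to -0.54, adjusted p 0.0776 to 0.0912), and the LIG1 trend without the 60, 120, 600 or 720 min library (-1.34 to -1.10, adjusted p 0.0569 to 0.133). FEN1 has 1 annotated pseudogene and RPA2 has 3.

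The 3 enzymes that make deoxynucleotides reached a ratio of -0.5 or lower in the last library alone. RRM2, the S-phase subunit of ribonucleotide reductase, stood at 306, 381, 415, 399, 240 and 196 CPM at 0, 60, 120, 240, 600 and 720 min. It was above the 0 min level at the first 3 lit times (0.44 at 120 min, interval 0.37 to 0.52) and below it at the last 2 (-0.64 at 720 min, interval -0.73 to -0.55), an upward bend of 0.63 ± 0.17 (SE, adjusted p = 0.0141). RRM1, the large subunit that RRM2 works with, stayed at 201 to 225 CPM up to 240 min and stood at 182 and 137 CPM at 600 and 720 min (trend -0.59 ± 0.18, SE, adjusted p = 0.091). TYMS, thymidylate synthase, had 459, 444, 420, 350, 342 and 309 CPM, lower at each time than at the one before, though its trend of -0.52 ± 0.15 had an adjusted p of 0.0862. All 3 trends were negative at an unadjusted p under 0.05. edgeR called 0 of the 3 and DESeq2 called 2, RRM1 and RRM2. The RRM2 bend was lost without the 0 or 240 min library (0.41 to 0.67, adjusted p 0.131 to 0.209), and without either one its trend passed instead (-1.16 to -0.87, adjusted p 0.0103 to 0.045). RRM2 has 3 annotated pseudogenes and TYMS 2, and RRM2 counts were not whole in 3 libraries.

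Both cyclin E genes, which activate CDK2 at the start of S phase, were low at 240 min and then parted. CCNE2 stood at 54.3, 63.5, 53.1, 31.8, 27.9, 26.6 and 22.3 CPM, so its 2 levels before 240 min were near or above the 0 min one and each later level was lower than the last. Its trend was -1.45 ± 0.24 (SE, adjusted p = 0.0104). CCNE1 stood at 18.7, 18.0, 18.0, 8.38, 9.09, 10.9 and 13.5 CPM, lowest at 240 min (ratio -1.14, interval -1.57 to -0.76) and part of the way back at 720 min (-0.47, interval -0.85 to -0.11). The CCNE1 bend was -0.88 ± 0.27 (SE, adjusted p = 0.0262). At 720 min the ratio of CCNE2, -1.27 (interval -1.54 to -1.02), lay below the CCNE1 interval. E2F1, the transcription factor at the head of this programme, stood at 38.6, 34.7, 32.6, 26.1, 21.9, 25.9 and 28.7 CPM, lowest at 480 min, with a bend of -0.51 ± 0.17 (SE, adjusted p = 0.0407). The CCNE2 trend was lost without the 600 min library (-1.499, adjusted p = 0.0626). The CCNE1 bend was lost without the 240, 480 or 720 min library (-0.92 to -0.62, adjusted p 0.0562 to 0.171), and the E2F1 bend when any one library was left out (-0.57 to -0.44, adjusted p 0.0544 to 0.16).

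The onset of the loss was set as the earliest time from which a gene stayed at a log2 ratio of -0.5 or lower, with its interval below 0, at that and each later time with a value. By this rule 23 of the 39 genes had a lasting lower level, against 14.7% of all genes tested. Since the rule runs to the last library, these are by construction the genes lower at 720 min, and the count is no further result. It began at 120 min for MCM4, GINS2, LIG1 and RPA1, so for 4 genes (2.07% of all genes), and at 60 min for none of them (1.42%). At 240 min it began for 5 genes, MCM2, MCM7, POLD1, PCNA and CCNE2 (2.17%). For 2 genes, MCM3 and GINS1, it began at 480 min (2.5% of the 7708 genes with a value there), a time at which only listed genes could start. The 600 min library added 5, ORC1, MCM6, MCM10, POLA2 and RFC5 (2.65%), of which ORC1, POLA2 and RFC5 have no value at 480 min and may have been low then. The last library added 7, CDC45, POLA1, POLE, RFC4, RRM1, RRM2 and TYMS (5.01%), whose onset rests on that library alone. By role, 3 of 10 licensing genes were lower from 240 min or before, while 3 of 3 nucleotide supply enzymes started at 720 min. Of 12 further nucleotide enzymes outside the 39 genes, 1 started at 240 min and 1 at 720 min. These times moved with the setting: with UMI counts RRM2 and TYMS had no lasting lower level and MCM7 started at 480 min, and with read counts TYMS started at 240 min. With the interval alone as the limit the onsets were 240 min for RRM1, 600 min for RRM2, 120 min for TYMS and 60 min for MCM2, MCM4 and MCM7. Of the 4 genes that started at 120 min, GINS2 and LIG1 started at 240 min with UMI counts, LIG1 also with RLE size factors, and LIG1 and RPA1 started at 60 min with read counts. The remaining 16 genes had no lasting lower level. They were ORC6, CDC6, CDT1, MCM5, GINS3, GINS4, PRIM1, PRIM2, RFC1, RFC2, RFC3, FEN1, RPA2, RPA3, CCNE1 and E2F1. With read counts, though, FEN1 started at 240 min and GINS4 at 720 min.

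Between 240 and 720 min the genes went both ways, a comparison chosen after the values were seen. The ratio of 720 to 240 min had an interval below 0 for 26 of the 39 genes (33.3% of all genes) and above 0 for 5 (31.9% of all genes). The 5 that were higher at 720 than at 240 min were CCNE1 at 0.67 (interval 0.24 to 1.13), RPA1 at 0.43 (0.26 to 0.60), FEN1 at 0.40 (0.28 to 0.53), PCNA at 0.24 (0.11 to 0.36) and RPA3 at 0.19 (0.03 to 0.36). MCM10, at -1.35 (-1.67 to -1.06), and RRM2, at -1.02 (-1.11 to -0.93), lay at the other end.

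**Figure D4:**
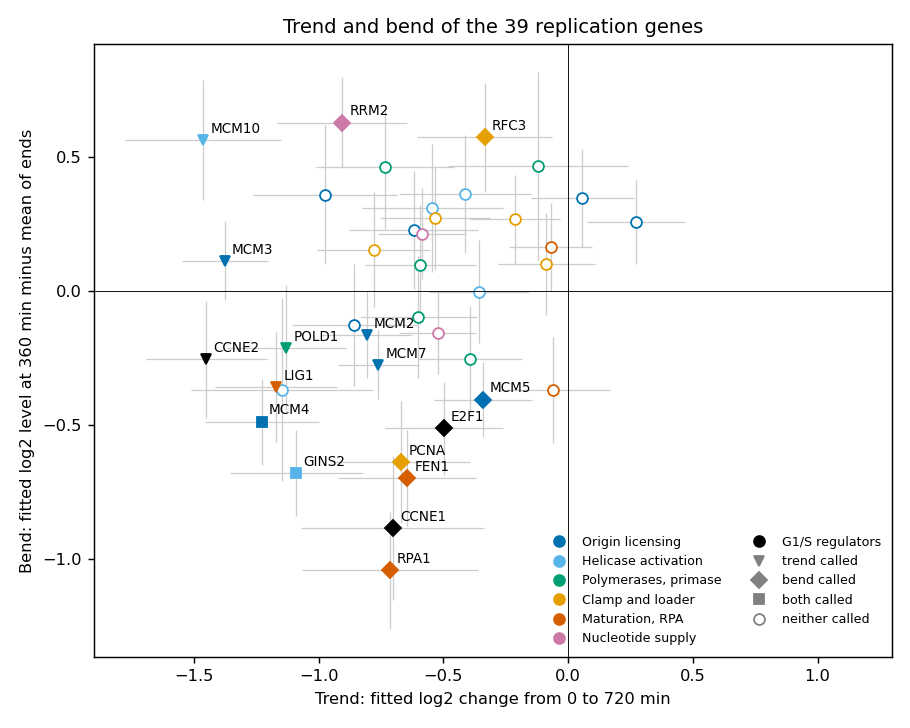
Fitted trend (horizontal axis, log2 change over 720 min) against bend (vertical axis, log2) of the 39 genes, marked by which test they passed. The 9 genes with a falling trend lie at -0.76 or lower, and RPA1 has the lowest bend, at -1.04.

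Replication genes outside the 39 took both kinds of course. Over 58 further genes in 4 lists, all tested, 6 trends fell (2.96% of all genes) and 1 rose (3.9%). Upward bends numbered 12 (17.5% of all genes) and downward ones 4 (13.7%), and the median trend was -0.53. Among 13 other origin factors, GMNN, the inhibitor of CDT1, fell by 0.89 ± 0.20 (SE, adjusted p = 0.0281), with 71.99 CPM at 720 min, against 117 CPM at 0 min, a call lost without the 60, 120, 480, 600 or 720 min library (-1.01 to -0.78, adjusted p 0.0569 to 0.152). The rank of time lost the GMNN call too. CDC7, the kinase that fires loaded helicases, stood at 22.0, 28.7, 39.4, 44.1, 30.1, 22.1 and 15.2 CPM, an upward bend of 1.16 ± 0.21 (SE, adjusted p = 0.00247) that passed under all 14 other settings. ORC2, a core subunit of the origin recognition complex, and MCMBP, which binds MCM subunits, bent upward too, by 0.65 ± 0.19 and 0.52 ± 0.16 (SE, adjusted p 0.0202 and 0.0281). The ORC2 bend was lost without the 0, 240 or 720 min library (0.57 to 0.70, adjusted p 0.0734 to 0.149) and the MCMBP bend without the 0, 120, 480 or 720 min library (0.30 to 0.57, adjusted p 0.051 to 0.354). Read counts lost the MCMBP bend too. Among 16 further polymerase and fork genes, POLE2, a subunit of polymerase epsilon, and POLD3, of polymerase delta, bent upward by 1.04 ± 0.26 and 0.92 ± 0.24 (SE, adjusted p 0.00916 and 0.0111). The POLE2 and POLD3 bends were lost without the 0 or 240 min library (POLE2 0.72 to 0.89, adjusted p 0.119 to 0.171, and POLD3 0.61 to 0.77, adjusted p 0.153 to 0.196). Their catalytic subunits POLE and POLD1 passed no bend test (0.10 ± 0.22 and -0.21 ± 0.23, SE), and the differences were not tested. POLD2, another subunit of polymerase delta, named after its values were seen, had a downward bend of -0.52 ± 0.18 (SE, adjusted p = 0.0391). WDHD1, which tethers polymerase alpha to the helicase, bent upward by 0.69 ± 0.22 (SE, adjusted p = 0.0277), lost without the 0, 120 or 240 min library (0.62 to 0.70, adjusted p 0.0609 to 0.192). TOP1, the topoisomerase that relieves twist ahead of the fork, rose by 0.88 ± 0.17 (SE, adjusted p = 0.0228) and had 379 CPM at 720 min, against 176 CPM at 0 min. The TOP1 call was lost without the 60, 120, 600 or 720 min library (0.76 to 0.98, adjusted p 0.0599 to 0.164).

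Of 12 further nucleotide enzymes edgeR called 0 trends (5 at an unadjusted p under 0.05, and 1 by DESeq2). Over all genes 2.96% fell and 3.9% rose. RRM2B, the p53-induced partner of RRM1, stood at 28.1, 39.8, 41.9, 66.4, 55.6 and 44.1 CPM at 0, 60, 120, 240, 600 and 720 min, an upward bend of 1.03 ± 0.20 (SE, adjusted p = 0.00314). Its highest level was at 240 min, and its call was lost without that library (0.82, adjusted p = 0.116). CAD, which starts pyrimidine synthesis, bent downward by 1.11 ± 0.29 (SE, adjusted p = 0.0142), with 6.95 CPM at 240 min, against 19.8 CPM at 0 min, and lost its call without the 0 or 240 min library (-0.86 to -0.84, adjusted p 0.0977 to 0.103). Among 17 other S-phase genes 5 fell (2.96% of all genes). E2F2 had the steepest fall of these 5, at -2.10 ± 0.37 (SE, adjusted p = 0.0127), at 23.2, 28.2, 33.5, 28.7, 12.02, 9.75 and 7.40 CPM. The maintenance methyltransferase DNMT1 fell by 0.71 ± 0.16 (SE, adjusted p = 0.0286) and the chromatin remodeller HELLS by 1.03 ± 0.24 (SE, adjusted p = 0.034). These calls, too, were lost without single libraries: E2F2 without the 600 or 720 min library (-2.06 to -1.97, adjusted p 0.0668 to 0.0815), DNMT1 without the 60, 120, 480, 600 or 720 min library (-0.73 to -0.62, adjusted p 0.0514 to 0.149), and HELLS without the 60, 120, 600 or 720 min library (-1.09 to -0.75, adjusted p 0.0937 to 0.164). The rank of time lost the trends of E2F2, DNMT1 and HELLS as well, and read counts lost that of DNMT1. E2F7, a repressor of E2F targets, stood at 37.9, 64.6, 82.7, 121, 160, 110 and 80.1 CPM, an upward bend of 1.46 ± 0.16 (SE, adjusted p = 0.000323) that passed under all 14 other settings. E2F7 was highest at 480 min, where E2F1 was lowest (ratio to 0 min -0.81, interval -1.07 to -0.57). That interval overlaps those of E2F1 at 240 min (-0.81 to -0.32) and 600 min (-0.83 to -0.33). A link between E2F7 and E2F1 was not tested. HELLS also bent upward, by 0.52 ± 0.14 (SE, adjusted p = 0.0161), lost without the 240 or 720 min library (0.54 to 0.56, adjusted p 0.0678 without each). ASF1B, a chaperone that hands histones to new DNA, stood at 128, 101, 85.5, 68.4, 44.2, 47.5 and 75.4 CPM, a downward bend of -0.94 ± 0.17 (SE, adjusted p = 0.00251) that was lost without the 720 min library (-0.58, adjusted p = 0.0656).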

How the data were processed

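The files of each library are gene tables of reads, UMIs and transcripts with 96 barcode columns, holding the authors' deposited counts, estimated counts that need not be whole, per the file headers. The submitters' processing notes name BWA and hg19; the sources used here name no annotation or counting program. The transcript column is the UMI column corrected for collisions among 4096 UMIs (largest difference 7.39e-10). Only barcode 4, the primer named in the labels, was used, and the other 95 columns were not. Counts were rounded to whole numbers. ERCC spike-in rows, 0.00657% to 0.00999% of transcripts in the complete tables, were left out. A gene after NME1-NME2 was taken as missing at 480 min, not as 0. Before that point 0 genes with 10 or more counts in the 6 complete tables were missing there.

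A gene was fitted if 3 or more libraries had 10 or more counts of it. The fit was edgeR 4.0.16 (R 4.3.3, robust quasi-likelihood) with TMM factors from the 6 complete libraries; the 480 min library was scaled over its own listed genes. Genes with a value there were fitted on 7 libraries (5 residual degrees of freedom for the trend, 4 for the bend) and the rest on 6 (4 and 3). Ratios to 0 min used a prior count of 2, and folds and exact binomial 95% intervals used none. The intervals take corrected counts as plain counts, so for TYMS, RRM2 and MCM7, with up to 2515 UMIs, they cover part of the counting error. The scripts were tested on simulated data. Alternatives were RLE size factors, UMI or read counts, other count filters, the rank of time, DESeq2 1.42.0 and leaving out each library. The genes, lists and rules were chosen with earlier results of these data known. Outside the 39 genes, those named are the 3 of lowest adjusted trend p and the 3 of lowest adjusted bend p in each list, among those called. POLD2 and CDKN1A were named besides.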

Additional observations from a re-analysis of the deposited data

How the results depend on the processing

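No paired analysis was possible because each time has 1 library. The direction of called single-gene values reversed in 0 cases: 808 ratios moved by less than their interval and 48 by more, and of the trends and bends 991 kept their side of the threshold, 84 lost it and 15 gained it. Against 9 falling trends, DESeq2 called 15, and leaving out a library gave 1 (without 600 min) to 12 (without 0 min). Rising trends numbered 0 throughout. Against 8 downward bends, the rank of time gave 2, and leaving out a library 0 (without 240 min) to 5 (without 480 or 600 min). Against 2 upward bends, DESeq2 gave 1 and leaving out a library 0 (without 0 or 240 min) to 3 (without 720 min). Of the calls, 1 of 9 trends and 0 of 10 bends held under all 14 settings. With the rank of time the trend of MCM10 (-1.44, adjusted p = 0.0932) and the bends of MCM4 (-0.29), FEN1 (-0.42) and CCNE1 (-0.53) did not pass. The MCM5 bend was lost under no count filter, the rank of time and DESeq2 (-0.40 to -0.33, adjusted p 0.0607 to 0.0633), and the E2F1 bend under these and read counts (-0.51 to -0.34, adjusted p 0.0576 to 0.137). With a limit of -1 in place of -0.5, 7 genes had a lasting lower level in place of 23, 0 by 120 min in place of 4, 1 at 240 min in place of 5 and 6 later in place of 14. With the interval alone 14 genes were lower by 120 min, and with UMI counts 2. Over all genes, falling trends numbered 401, or 718 by DESeq2 and 50 without the 600 min library, and rising ones 529, or 854 and 96. Downward bends numbered 1859, or 522 without the 240 min library, and upward ones 2379, or 856. The causes were not tested. With 1 library per time no value has a replicate check, and depth limits the scarcest genes, such as PRIM2.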

Other observations

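Regulators of G1, listed apart from the 39 genes, moved in both directions. Of 14 such genes 13 were tested, 1 rose (3.9% of all genes), 1 fell (2.96%), 5 bent upward (17.5%) and 4 downward (13.7%). CCND2, a D-type cyclin that drives cells through G1, stood at 95.8, 86.7, 127, 176, 292, 292 and 297 CPM across the 7 times, a rise by 1.90 ± 0.25 (SE, edgeR adjusted p = 0.00435) that passed under all 14 other settings. CDKN2C, an inhibitor of the kinases that D-type cyclins activate, stood at 392, 305, 227, 237, 139, 116 and 141 CPM and fell by 1.53 ± 0.24 (SE, edgeR adjusted p = 0.00772), a call lost without the 600 min library (-1.41, adjusted p = 0.059). RBL2, a relative of the retinoblastoma protein, bent upward by 1.10 ± 0.18 (SE, edgeR adjusted p = 0.00143) and so did CDK6 by 0.76 ± 0.14 (SE, adjusted p = 0.0025), both under all 14 other settings. CDKN1C, an inhibitor of cyclin-dependent kinases, had a downward bend of -1.08 ± 0.25 (SE, edgeR adjusted p = 0.00744), lost without the 0 min library (-0.88, adjusted p = 0.0693). The CCND2 course also bent upward, by 0.52 ± 0.16 (SE, edgeR adjusted p = 0.0292), which was lost without the 240, 480 or 720 min library (0.43 to 0.53, adjusted p 0.0966 to 0.176). With the rank of time the CCND2 bend was lost too (0.16, edgeR adjusted p = 0.59). CDKN1A, the p21 inhibitor, chosen after its values were seen, passed no test at 262, 185, 149, 141, 377, 361 and 391 CPM, with its 3 late levels above and its 3 middle levels below the 0 min one.

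Of 20 mitosis genes, 1 was lower at 240 min by at least 0.5 on the log2 scale with an interval below 0 (21.2% of all genes). At 720 min 8 of them were (14.7% of all genes). Whether this differs from the replication genes was not tested. Of the 20, 4 trends fell (2.96% of all genes), with a median trend over the 20 of -0.41. The summed level of the 20 was 3798, 3683, 3599, 3309, 2891 and 2965 CPM at 0, 60, 120, 240, 600 and 720 min. CDK1, the kinase of mitotic entry, fell by 0.62 ± 0.14 (SE, edgeR adjusted p = 0.0329), a call lost without the 60, 120, 480, 600 or 720 min library (-0.64 to -0.58, adjusted p 0.0556 to 0.176). PLK1, another mitotic kinase, stood at 190, 165, 141, 130, 131 and 178 CPM at 0, 60, 120, 240, 600 and 720 min, a downward bend of -0.65 ± 0.16 (SE, edgeR adjusted p = 0.0104), lost without the 0, 240 or 720 min library (-0.78 to -0.55, adjusted p 0.051 to 0.0708). DLGAP5 and NUSAP1, proteins of the mitotic spindle, fell by 0.79 ± 0.18 and 0.69 ± 0.16 (SE, edgeR adjusted p 0.0353 and 0.0367). DLGAP5 lost its call without the 0, 60, 120, 480, 600 or 720 min library (-0.88 to -0.73, adjusted p 0.0504 to 0.168), and NUSAP1 without the 60, 120, 600 or 720 min library (-0.75 to -0.67, adjusted p 0.105 to 0.185). KIF11, a spindle motor, bent upward by 0.43 ± 0.15 (SE, edgeR adjusted p = 0.0397), a call lost without the 0, 120, 240, 480, 600 or 720 min library (0.37 to 0.49, adjusted p 0.0632 to 0.178). No count filter and DESeq2 lost the KIF11 bend too. The rank of time lost the trends of CDK1, DLGAP5 and NUSAP1.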
